A study of Mus musculus with 6 samples.

Results

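The genes described here encode subunits of the mammalian H,K-ATPases and Na,K-ATPases, the P2C-type cation pumps, together with their small FXYD partner proteins. There were 10 members: the catalytic subunit genes Atp4a and Atp12a, the beta subunit genes Atp4b, Atp1b1, Atp1b2 and Atp1b3, and the FXYD genes Fxyd1, Fxyd2, Fxyd4 and Fxyd6. They were chosen as a protein family, with earlier results of these data known, and each was read from the transcript cluster (the probe group that stands for about 1 gene on the array) annotated with its symbol. All 10 were found, with 1 cluster each, among 22206 transcript clusters. RNA came from renal tubular epithelial cells released from mouse kidneys with collagenase, which had been ischemic for 30 min and then reperfused for 24 h, a procedure that injures the tubules. The 3 arrays labelled IR were taken as the vehicle arm and the 3 labelled IRPT as the arm given PT2385, in doses of 10 mg/kg, the first 16 h ahead of surgery and the others 1, 8 and 20 h afterwards. PT2385 blocks the pairing of HIF-2α, a hypoxia-inducible transcription factor, with its partner ARNT. The protocol spells the injected compound PT2384, and the labels give no strain, age or sex. All animals of both arms had ischemia, so each comparison is between treatment arms after injury, and kidneys without ischemia were not analysed here.

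P2C-type pumps use ATP to move cations across the cell membrane against their gradients. The Na,K-ATPase sits on the basolateral side of tubule cells and keeps cell sodium low, which drives sodium-coupled reabsorption from the tubule lumen. The H,K-ATPases exchange protons for potassium: the gastric form, with Atp4a as its catalytic and Atp4b as its beta subunit, acidifies the stomach, and both it and the nongastric form encoded by Atp12a are found in the collecting duct. A beta subunit is needed for the catalytic subunit to fold and reach the membrane, and FXYD proteins tune the affinity of the pump for its ions. The series title names Atp4a as regulated by hypoxia.

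The arms also differed in Y-linked transcripts. Eif2s3y, a translation factor gene on the Y chromosome, had 9.20 ± 0.10 (SD, n = 3) in the vehicle arrays and 3.21 ± 0.16 (SD, n = 3) in the PT2385 arrays, and all 3 measured Y-linked genes were lower in every PT2385 array. An effect of PT2385 and of sex therefore cannot be told apart for any value below. Values are summarised log2 signals, so a difference of 1 is a doubling of signal, and signals of different genes are not compared because probes differ in brightness. The 23 background control rows had means from 2.45 to 7.37 and the negative control rows had array medians from 4.28 to 4.47, which serve as a guide to how dim a signal is. Markers of proximal tubule were bright, with vehicle means of 11.78 for the phosphate transporter gene Slc34a1 and 11.77 for the organic anion transporter gene Slc22a6. Markers of other cells were also above the negative controls, such as the endothelial gene Pecam1 (vehicle mean 8.39) and the leukocyte genes Lyz2 (8.57) and Ptprc (7.09). In such bulk RNA, fewer cells of a type and less RNA per cell cannot be told apart.

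Across the family, 9 of the 10 members had a higher mean in the PT2385 arm, where 53.5% of all clusters did, and the exception was Atp4b. The median difference of the members (PT2385 minus vehicle) was 0.15, and that of all clusters was 0.016. None of the 10 members passed the threshold in limma, an adjusted p under 0.05 over all clusters, which 0.829% of clusters passed, 0.333% as higher and 0.495% as lower. An unadjusted p under 0.05 was reached by 3 members (Atp4a, Fxyd1 and Fxyd6) and by 14.5% of clusters. In 5 members every PT2385 array lay above every vehicle array, as in 11.6% of clusters: Atp12a, Atp1b1, Fxyd1, Fxyd4 and Fxyd6. After each array was centred on its median this held for 3 members, Fxyd1, Fxyd4 and Fxyd6, and for 7.51% of clusters. These 3 FXYD genes kept separate groups under quantile and cyclic loess normalization too, where the groups of Atp4a and Atp1b3 also became separate and those of Atp12a overlapped. Every PT2385 array was higher in 9.9% of clusters with quantile and in 9.37% with cyclic loess normalization. Atp1b1 kept separate groups with cyclic loess and lost them with quantile normalization. No member had every PT2385 array below every vehicle array, as 9.13% of clusters had. The direction of Atp1b2 turned under all 3 of these scalings.

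**Figure D1:**
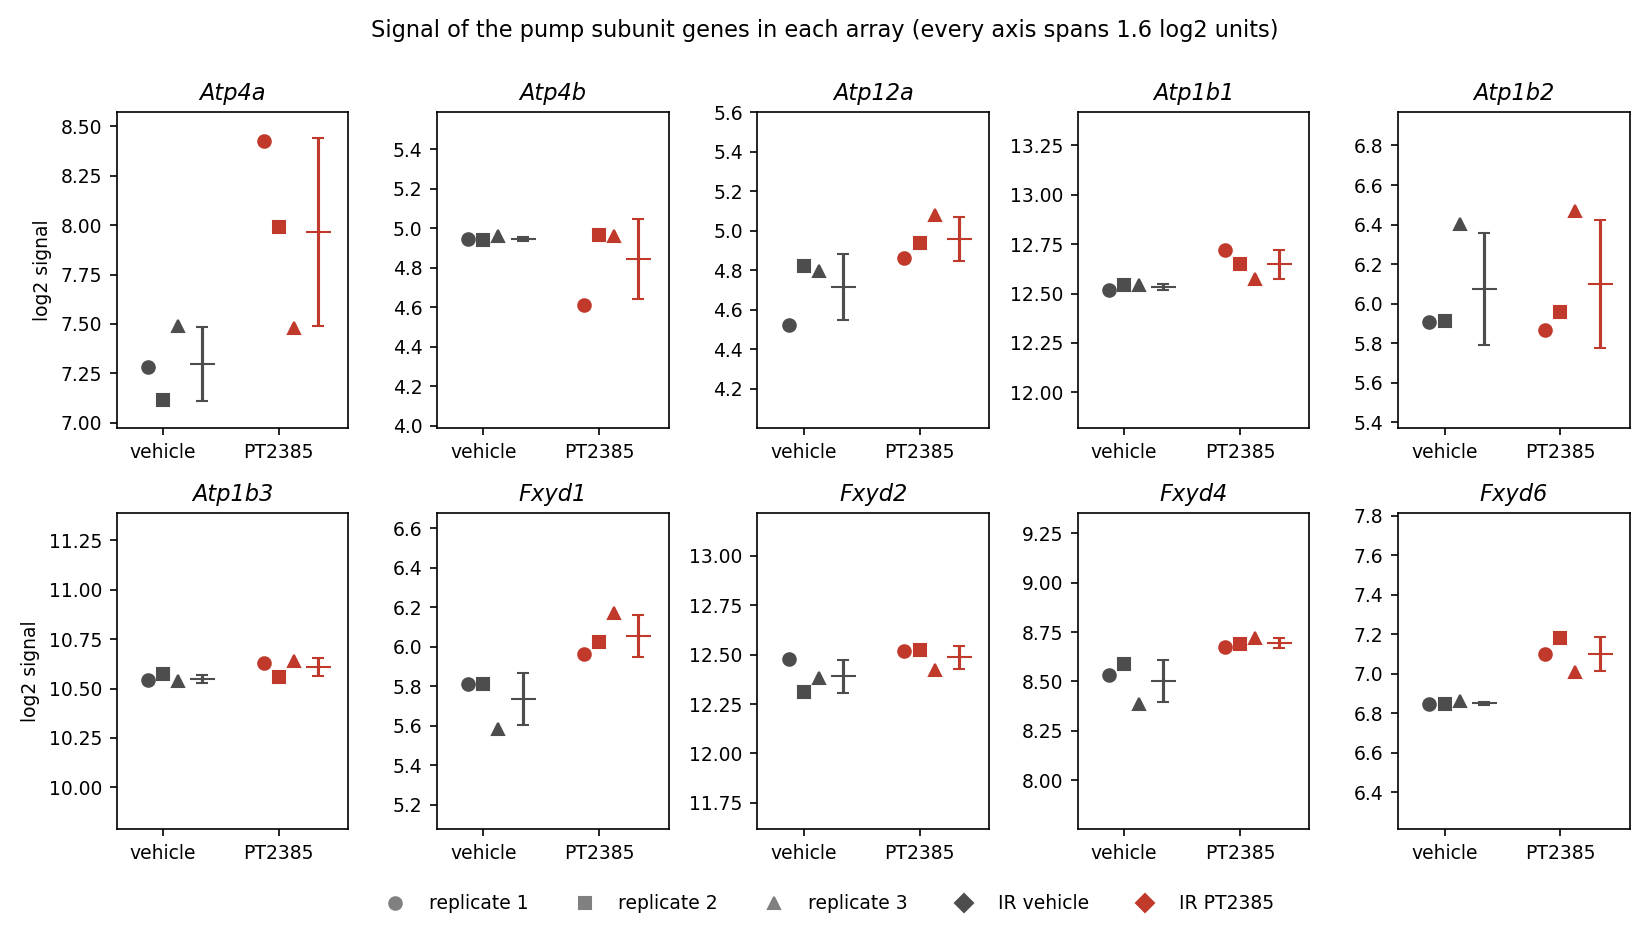
Log2 signal of the 10 pump subunit genes in each array, vehicle in grey and PT2385 in red, with the marker shape giving the replicate number and bars giving the mean ± SD of 3 arrays. Every vertical axis spans the same number of log2 units, and Atp4a and Atp1b2 show the widest spread between arrays of a group.

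Atp4a encodes the catalytic subunit of the gastric H,K-ATPase. Its log2 signal was 7.28, 7.12 and 7.49 in vehicle replicates 1, 2 and 3, compared with 8.43, 7.99 and 7.48 in PT2385 replicates 1, 2 and 3. PT2385 replicates 1 and 2 lay above all vehicle arrays, while PT2385 replicate 3 lay just below the highest of them, so the groups overlapped, as they also did with median-centred arrays. With quantile or cyclic loess normalization every PT2385 array was above every vehicle array. The single PT2385 arrays exceeded the vehicle mean by 1.13, 0.69 and 0.18. The difference of 0.67 (SE 0.22, limma adjusted p = 0.230) corresponds to a 1.59-fold higher signal, with a 95% interval of 1.12-fold to 2.25-fold before any adjustment for the number of clusters. It had the largest difference of the 10 members and an unadjusted p of 0.0146, a value matched or undercut by 6.36% of all clusters. The within-group SD of Atp4a, pooled over the arms, was 0.361, larger than that of 96.3% of clusters. Without PT2385 replicate 1 the difference was 0.44 (limma adjusted p = 0.318), and without PT2385 replicate 3 it was 0.91 (limma adjusted p = 0.065). Both means, 7.30 in vehicle and 7.97 in PT2385, were above the negative control medians (4.28 to 4.47) and the median background control row (3.6). Only the brightest of the 23 background control rows (7.37) lay between the 2 means.

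HIF-2 with ARNT binds DNA at hypoxia response elements, whose core letters are ACGTG or GCGTG. The promoter window of Atp4a in RefSeq (GRCm38.p6, chr7:30711959-30712258, plus strand, 250 bases before to 50 after the start) is shown because the series concerns hypoxia and this gene. Letters of either core would be in capitals, and this window has none on either strand.

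Atp4a: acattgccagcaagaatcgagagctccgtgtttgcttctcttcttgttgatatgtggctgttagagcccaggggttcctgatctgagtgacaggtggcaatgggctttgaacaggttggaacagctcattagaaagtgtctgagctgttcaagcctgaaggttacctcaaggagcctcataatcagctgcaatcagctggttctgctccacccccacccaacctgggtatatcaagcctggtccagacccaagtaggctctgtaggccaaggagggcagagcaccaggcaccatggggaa

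Of all 32851 promoter windows of this length, 19.6% hold ACGTG and 32.4% hold GCGTG on either strand, and 43.8% hold at least 1 of them. A missing match says only that these letters are not in these 300 bases.

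Atp4b encodes the beta subunit that assembles with Atp4a. Its signal was 4.94, 4.94 and 4.96 in the vehicle arrays, compared with 4.61, 4.97 and 4.96 in PT2385 replicates 1, 2 and 3. PT2385 replicate 1 was lower than the other 5 arrays, which lay between 4.94 and 4.97. The difference was -0.10 (SE 0.12, 95% interval -0.37 to 0.17, limma adjusted p = 0.719), and without PT2385 replicate 1 it was 0.016. PT2385 replicate 1 thus had the highest Atp4a and the lowest Atp4b signal of the 6 arrays. Atp4b was dim, with both means (4.95 and 4.84) close to the negative control medians, so a change in it could go unseen.

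Atp12a encodes the catalytic subunit of the nongastric H,K-ATPase, which takes up potassium in the distal nephron. The vehicle arrays gave 4.52, 4.82 and 4.80, and the PT2385 arrays gave 4.86, 4.94 and 5.08. The groups did not overlap, but the lowest PT2385 array exceeded the highest vehicle array by little. The difference was 0.25 (SE 0.12, 95% interval -0.02 to 0.51, limma adjusted p = 0.378). After median centring, quantile or cyclic loess normalization the groups overlapped, with differences between 0.164 and 0.199. With means of 4.71 and 4.96, Atp12a was also near the negative controls.

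The beta subunit genes of the Na,K-ATPase differed little between the arms. Atp1b1, the main beta subunit of kidney tubules, had 12.52, 12.54 and 12.54 in the vehicle arrays, compared with 12.72, 12.65 and 12.57 in PT2385 replicates 1, 2 and 3. Every PT2385 array was higher than every vehicle array, and the vehicle arrays agreed within 0.023. The difference of 0.12 (SE 0.09, 95% interval -0.09 to 0.32, limma adjusted p = 0.593) did not pass, and the upper bound corresponds to a 1.25-fold higher signal. These signals were near the top of the scale, where the array maxima were 13.39 to 13.49 and differences can be compressed.

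Atp1b3, a beta subunit made in many tissues, had 10.54, 10.57 and 10.54 in the vehicle arrays, compared with 10.63, 10.56 and 10.64 in the PT2385 arrays. PT2385 replicate 2 lay among the vehicle arrays and the other 2 above them. The difference was 0.06 (SE 0.09, 95% interval -0.14 to 0.26, limma adjusted p = 0.793). Its pooled within-group SD of 0.035 was among the smallest measured, with 1.09% of clusters lower. Atp1b2, the beta subunit known from glia and neurons, had 5.91, 5.91 and 6.40 in the vehicle arrays, compared with 5.87, 5.96 and 6.47 in the PT2385 arrays. Replicate 3 of each arm was the highest of its arm, and the other 4 arrays lay between 5.87 and 5.96. The difference of Atp1b2 was 0.02 (SE 0.19, 95% interval -0.41 to 0.46, limma adjusted p = 0.967), so its interval still includes a fold from 0.752 to 1.37. The 6 measured markers of nerve and glia averaged -0.077 to 0.038 in the vehicle arm and -0.058 to 0.112 in the PT2385 arrays, as deviations from each gene's own mean, and their part in the values of Atp1b2 was not tested.

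**Figure D2:**
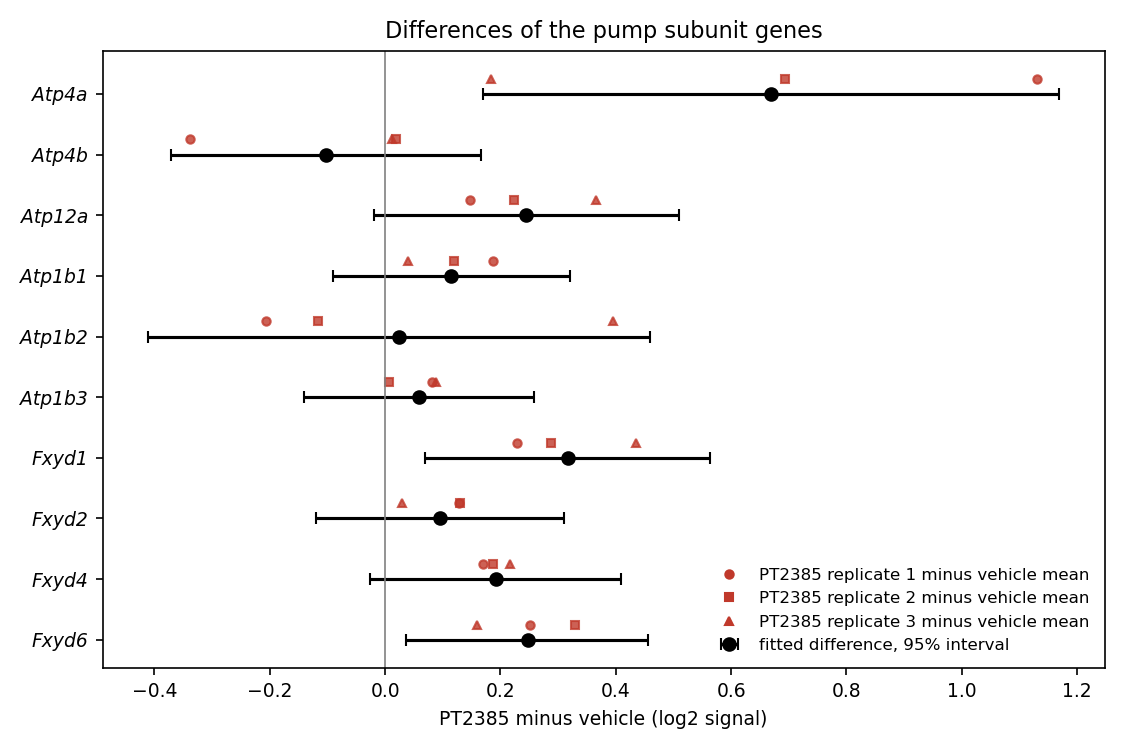
Difference in log2 signal, PT2385 minus vehicle, for each pump subunit gene: black points are the limma estimates with 95% intervals not adjusted for the number of clusters, and red markers are each PT2385 array minus the vehicle mean. Intervals of Atp4a, Fxyd1 and Fxyd6 lie above 0, and that of Atp1b2 is centred near 0.

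Among the members with a RefSeq promoter window, Atp1b1 and Atp1b3 held a core of the hypoxia response element, and Atp4a, Fxyd1, Fxyd4 and Fxyd6 held none. No window was used for Atp4b, Atp12a, Atp1b2 and Fxyd2. The windows of the 2 genes with matches are shown with each core in capitals: Atp1b1 at chr1:164458306-164458605 and Atp1b3, the more downstream of its 2 windows, at chr9:96363666-96363965, both minus strand, GRCm38.p6.

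Atp1b1: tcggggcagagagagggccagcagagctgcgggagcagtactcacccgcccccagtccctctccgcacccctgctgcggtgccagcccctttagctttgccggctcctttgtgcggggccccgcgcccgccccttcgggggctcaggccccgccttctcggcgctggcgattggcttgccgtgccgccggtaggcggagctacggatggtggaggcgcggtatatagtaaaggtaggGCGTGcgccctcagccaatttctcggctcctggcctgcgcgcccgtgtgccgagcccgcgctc

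Atp1b3: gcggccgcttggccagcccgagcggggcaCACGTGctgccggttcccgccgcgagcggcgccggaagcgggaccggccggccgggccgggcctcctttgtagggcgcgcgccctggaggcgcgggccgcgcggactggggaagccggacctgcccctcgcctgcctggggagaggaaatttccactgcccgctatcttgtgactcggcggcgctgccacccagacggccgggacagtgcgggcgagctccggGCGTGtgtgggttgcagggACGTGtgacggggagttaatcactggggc

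The Atp1b1 window has GCGTG once, 13 bases before the start. The Atp1b3 window has ACGTG on both strands where CACGTG, which reads the same on either strand, begins 221 bases before the start, and another ACGTG and a GCGTG after the start. Its other window, upstream on the chromosome's minus strand, holds GCGTG 4 times. Both genes lie in CpG-rich windows, with GC contents of 71.0% and 74.7% against a median of 52.7% over all windows. A match is a description of the letters and not evidence of binding, and neither gene passed the test.

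FXYD proteins are short membrane proteins that associate with the Na,K-ATPase. In 3 of the 4 FXYD members every PT2385 array was higher than every vehicle array, as in 11.6% of all clusters. The groups overlapped in Fxyd2, and also in Fxyd3 and Fxyd7, which were measured for comparison. Fxyd1, phospholemman, a pump regulator known mainly from heart and muscle, had 5.81, 5.81 and 5.58 in the vehicle arrays, compared with 5.96, 6.02 and 6.17 in the PT2385 arrays. The groups did not overlap, and the difference was 0.32 (SE 0.11, 95% interval 0.07 to 0.56, limma adjusted p = 0.246), a 1.25-fold higher signal. Of 9 measured markers of fibroblasts, pericytes and smooth muscle, 7 had a positive difference and 0 passed. Their mean deviation from each gene's own mean was -0.355 to 0.151 in the vehicle arm and 0.007 to 0.071 in the PT2385 arrays, and their part in the values of Fxyd1 was not tested.

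Fxyd6, known as a pump regulator in the nervous system and inner ear, had 6.85, 6.84 and 6.86 in the vehicle arrays, compared with 7.10, 7.18 and 7.01 in the PT2385 arrays. The vehicle arrays agreed within 0.015, and every PT2385 array lay above them. The difference of 0.25 (SE 0.09, 95% interval 0.04 to 0.46) had an unadjusted p of 0.026 and a limma adjusted p = 0.279. Fxyd4, also called CHIF, a FXYD protein of the collecting duct that raises the affinity of the pump for sodium, had 8.53, 8.59 and 8.38 in the vehicle arrays, compared with 8.67, 8.69 and 8.72 in the PT2385 arrays. The PT2385 arrays agreed within 0.047 and all lay above the vehicle arrays, with a difference of 0.19 (SE 0.10, 95% interval -0.03 to 0.41, limma adjusted p = 0.399).

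Fxyd2, the gamma subunit of the renal Na,K-ATPase, had 12.48, 12.31 and 12.38 in the vehicle arrays, compared with 12.52, 12.52 and 12.42 in the PT2385 arrays. The groups overlapped, since PT2385 replicate 3 lay below vehicle replicate 1, and the difference was 0.10 (SE 0.09, 95% interval -0.12 to 0.31, limma adjusted p = 0.672). Like Atp1b1 it was close to the brightest signals of the arrays. Fxyd2 and Fxyd6 are next to each other on chromosome 9 in the RefSeq gene order, and Fxyd1 lies on chromosome 7 beside Fxyd7, 2 genes from Fxyd3. Of 4 other genes of this family measured for comparison, Fxyd3, Fxyd7, Atp1a4 and Atp1b4, 0 passed. Fxyd3 had a difference of 0.15 (limma adjusted p = 0.547) and Fxyd7 had -0.10 (limma adjusted p = 0.727), and Atp1a4 and Atp1b4 were below the negative control medians.

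Other ATP-driven pumps had differences in both directions. The V-type H-ATPase is the proton pump of intercalated cells and of acidic organelles. Of its 21 measured subunits, 0 passed, 10 had a positive difference and the median was -0.004. In 3 of them (Atp6v0d2, Atp6v1b1 and Atp6v1c2) every PT2385 array was higher than every vehicle array, as in 11.6% of clusters. In 4 (Atp6v0a1, Atp6v0b, Atp6v0d1 and Atp6v1c1) every PT2385 array was lower, as in 9.13% of clusters. Atp6v0a1 had -0.47 (limma adjusted p = 0.190) and Atp6v1c2 had 0.55 (limma adjusted p = 0.243), the smallest p values of the list. Of 18 other P-type ATPases, 0 passed, 6 had a positive difference and the median was -0.04, with Atp11a, a phospholipid flippase gene, at -0.64 (limma adjusted p = 0.0649) and the copper pump gene Atp7a at -0.33 (limma adjusted p = 0.254). Atp11a passed as lower with median-centred arrays (limma adjusted p = 0.050), with trend and robust variance priors (0.0387) and with array weights (0.0217). Whether these lists differ from the pump subunits was not tested.

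Among the other listed genes, 2 passed, both partners of the pumps in basolateral salt transport. Of 21 measured genes for potassium recycling, chloride exit and acid-base transport, 2 rose past the threshold and 0 fell. Over all clusters, 0.333% passed as higher and 0.495% as lower. Of the 21 genes, 15 had a positive difference and the median was 0.25. Bsnd, which encodes barttin, the beta subunit of basolateral chloride channels, rose by 1.18 (SE 0.19, limma adjusted p = 0.0373). Kcnj10, a basolateral potassium channel gene whose product returns potassium taken up by the Na,K-ATPase, rose by 0.86 (SE 0.15, limma adjusted p = 0.0427). Both calls were lost without any 1 of the vehicle arrays or PT2385 replicate 2, with adjusted p from 0.0643 to 0.204, and that of Kcnj10 also without PT2385 replicate 1 (limma adjusted p = 0.0674). Of 14 sodium transporters that the pump energises, 0 passed, 9 had a positive difference and the median was 0.37. The epithelial sodium channel genes Scnn1b (0.54, limma adjusted p = 0.0535) and Scnn1a (0.78, limma adjusted p = 0.0952) had the smallest p values of that list. Scnn1b passed as higher in 6 alternatives (quantile and cyclic loess normalization, both filters on dim clusters, trend and robust variance priors, and array weights), with limma adjusted p from 0.0191 to 0.0488. Of 18 pump regulators 0 passed, with 12 positive and a median of 0.15, and the kinase genes Wnk1 (0.53, limma adjusted p = 0.180) and Stk39 (0.52, limma adjusted p = 0.198) led by p. Every PT2385 array lay above every vehicle array in 8 of the 21 potassium and acid-base genes, where 11.6% of all clusters did. The same held for 7 of the 14 sodium transporters, 4 of the 18 regulators and 1 of the 18 other P-type ATPases. Every PT2385 array lay below every vehicle array in 2, 0, 0 and 3 genes of these lists, in the same order, as in 9.13% of clusters. The lists were chosen with earlier results of these data known.

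**Figure D3:**
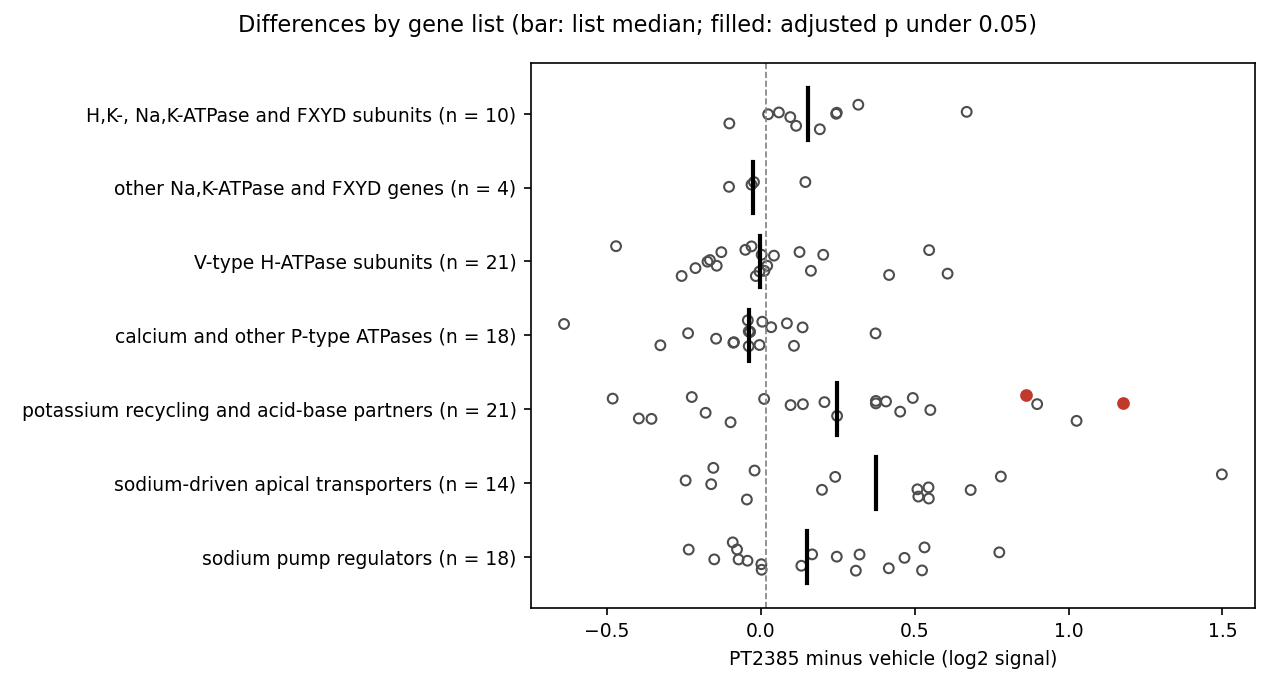
Difference in log2 signal, PT2385 minus vehicle, for each measured gene of the pump subunits and of 6 other lists; circles are genes, filled where the limma adjusted p was under 0.05, bars are list medians and the dashed line is the median of all clusters. Filled points are Bsnd and Kcnj10, and the pump subunits lie in a narrow range except Atp4a.

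Markers of nephron segments, distal and proximal, varied within the PT2385 arm in the same order as Atp4a. Each marker was set to 0 at its own mean of the 6 arrays. On that scale, 8 thick ascending limb markers averaged 0.709, 0.379 and 0.175 in PT2385 replicates 1, 2 and 3 and -0.696 to -0.193 in the vehicle arrays. Of the 8 markers, 3 (Cldn19, Ppp1r1a and Kng2) passed as higher, as did 0.333% of all clusters. For 9 intercalated cell markers the averages were 0.517, 0.201 and -0.013 in the PT2385 arrays and -0.299 to -0.168 in the vehicle arrays. For 6 distal convoluted tubule markers they were 0.863, 0.264 and 0.033 against -0.532 to -0.127. Atp4a, on the same scale, was at 0.796, 0.359 and -0.152 in PT2385 replicates 1, 2 and 3 and at -0.515 to -0.139 in the vehicle arrays. In Atp4a, in these lists and in the proximal tubule and principal cell lists, PT2385 replicate 1 was highest and PT2385 replicate 3 lowest of its arm.

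The 7 measured principal cell markers were more even, with 0.307, 0.289 and 0.216 in the PT2385 arrays and -0.514 to -0.081 in the vehicle arrays. Fxyd4, a gene of these cells, was also even, at 0.074, 0.092 and 0.121 in the PT2385 arrays, while its vehicle values ran from -0.214 to -0.009. All 9 intercalated, all 6 distal convoluted tubule and all 7 principal cell markers had a positive difference, and 0 of them passed. Proximal tubule markers varied within the PT2385 arm, with 0.562, -0.010 and -0.538 in replicates 1, 2 and 3 against -0.225 to 0.135 in the vehicle arm, and 1 of 10, Slc22a6, fell by 0.97 (limma adjusted p = 0.00572). Leukocyte markers were at 0.081 to 0.384 in the vehicle arm and at -0.394 to -0.061 in the PT2385 arm, and 1 of 9, Lyz2, fell by 1.18 (limma adjusted p = 0.0202). Slc22a6 and Lyz2 passed as lower, as did 0.495% of all clusters. The part of these cell types in the values of the pump genes was not tested. The 9 gastric epithelial markers, which could accompany Atp4a in stomach, had vehicle means no higher than 5.70, and 0 passed. Of these 9, 8 had a positive difference, where 53.5% of all clusters did, and the median was 0.05. In 1 of them, Muc5ac, every PT2385 array was higher than every vehicle array, as in 11.6% of all clusters.

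**Figure D4:**
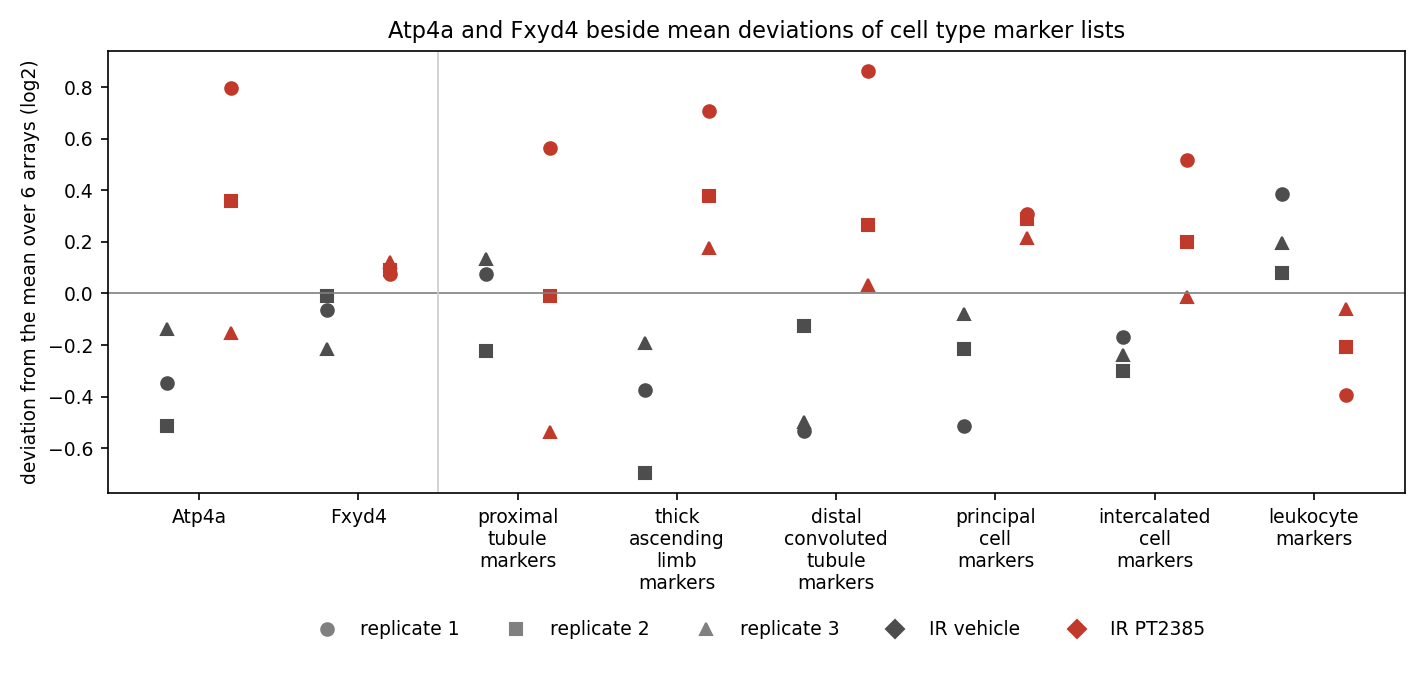
Deviation from the mean over the 6 arrays, in log2 units, for Atp4a and Fxyd4 and for the mean of each cell type marker list; grey is vehicle, red is PT2385 and the marker shape gives the replicate number. PT2385 replicate 1 is the highest array for Atp4a and for all 5 nephron segment lists, proximal tubule included.

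The genes whose profile over the 6 arrays lay closest to that of Atp4a were searched among 16412 autosomal genes, by the root mean square difference of centred log2 values. The closest were Dnah11 (0.088), an axonemal dynein gene, Cyfip2 (0.090), a regulator of actin assembly, Rap1gap (0.093), a GTPase-activating protein gene, Slc25a35 (0.097), a mitochondrial carrier gene, and Slc26a7 (0.101), an anion exchanger gene. Their differences ran from 0.55 to 0.75 with limma adjusted p between 0.140 and 0.235. Because they were picked for profiles like that of Atp4a, differences and p-values like its own follow from the choice. Slc26a7, known from intercalated and gastric parietal cells, had 3.85, 3.86 and 4.08 in the vehicle arrays, compared with 4.82, 4.56 and 4.06 in the PT2385 arrays, and like Atp4a only PT2385 replicate 3 was level with the vehicle arm. Its vehicle values lay below the negative control medians, and those of Dnah11 (4.35, 4.3 and 4.44) lay within the range of these medians. For the other members searched, the 5 genes closest to Atp1b1 differed by 0.013 to 0.027. Those closest to Fxyd2 differed by 0.019 to 0.026 and those closest to Fxyd4 by 0.022 to 0.029. These distances cannot be set against those of Atp4a, because the measure shrinks with a gene's own spread. The pooled within-group SD was 0.053 for Atp1b1, 0.072 for Fxyd2 and 0.077 for Fxyd4, against 0.361 for Atp4a. The closest genes were Tas2r110 for Atp1b1, Lamtor2 for Fxyd2 and Tmem230 for Fxyd4. Tas2r110, at 2.46 to 2.66, lay below the negative control medians.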

How the data were processed

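Gene expression was measured on Affymetrix whole-transcript arrays, 3 of vehicle and 3 of PT2385 tubular cells, grouped by sample title. The authors deposited summarised log2 signals, 1 per transcript cluster and array, from 1.93 to 13.49; the submitters' processing notes name Transcriptome Analysis Console; how it corrected background and normalized, and the build, was not given in the sources used here. The 6640 control rows were left out and 22206 clusters were tested without a filter. Of these, 19572 had 1 symbol in the platform annotation, 0 several and 2634 none, and updating through Entrez IDs (RefSeq, GRCm38.p6) changed 0 symbols. Promoter windows are from RefSeq.

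The arms were compared with limma 3.58.1 (lmFit, eBayes) in R 4.3.3, 2-sided, with Benjamini-Hochberg adjustment over all clusters and a threshold of 0.05. Of all clusters 74 were higher and 110 lower past it; centring each array on its median gave 57 and 135. Named genes were the 10 members, list members past the threshold or else the 2 with the smallest p, the 5 profiles nearest to Atp4a, Atp1b1, Fxyd2 and Fxyd4, and marker genes as examples. The members and lists were chosen with earlier results of these data known. Alternatives were other scalings, filters on dim clusters, variance priors, array weights, a replicate block, no X and Y chromosomes, 1 cluster per gene and omission of each array; the counts of members with separate groups were repeated under scalings and omissions chosen after seeing the data.

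In simulated data over 22206 clusters, 3 against 3, 20% of changes of 0.5 and 86% of changes of 1 on the log2 scale were recovered, with 3 false calls. Differences of the size seen here are thus often missed, and precision is limited by having 3 arrays an arm. The labels do not state whether samples are separate animals, and the p-values then reflect only sample-to-sample spread, which could be technical. No 2 arrays shared more than 0.234% of cluster values, so none was a copy.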

Additional observations from a re-analysis of the deposited data

How the results depend on the processing

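No pump member passed the threshold under any of the 16 alternatives run. The lowest limma adjusted p was 0.065 (Atp4a without PT2385 replicate 3). Atp4a stayed positive in all 16, between 0.438 and 0.912, both from omitted arrays. Atp12a, Atp1b1, Atp1b3, Fxyd1, Fxyd2, Fxyd4 and Fxyd6 also stayed positive in every alternative that held them. Atp1b2 turned to -0.022 with median-centred arrays, -0.028 with quantile normalization and -0.041 with cyclic loess, and ran from -0.161 to 0.188 when arrays were omitted; Atp4b ran from -0.163 to 0.016. The number of members with a positive difference was 7 to 10, with 7 of 7 remaining under the filter at a mean of 6, which removed Atp4b, Atp12a and Fxyd1. The number of members with every PT2385 array above every vehicle array was 5, beside 11.6% of all clusters, and 3 after median centring (7.51%). It was 5 with quantile normalization (9.9%), with Atp4a and Atp1b3 in place of Atp12a and Atp1b1. With cyclic loess it was 6 (9.37%), with Atp4a and Atp1b3 in place of Atp12a. When arrays were omitted it was 5 to 7, beside 15.3% to 18.5% of clusters, where fewer arrays make separation easier. The cause of the other changes was not tested.

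The count of all clusters past the threshold was 184, 456 with array weights and 42 to 179 when arrays were omitted. The count of genes in the other lists past it was 2, 4 with trend and robust variance priors, 10 with array weights (Bsnd, Kcnj10, Kcnj1, Rhcg, Slc12a1, Slc12a3, Scnn1a, Scnn1b, Scnn1g and Atp11a) and 0 to 8 when arrays were omitted, the 8 without PT2385 replicate 3. Same-numbered arrays had correlations of deviations of 0.138, 0.025 and -0.059, and vehicle replicate 2 correlated best with PT2385 replicate 3 (0.236). With 3 arrays an arm, these values cannot show whether the replicate numbers pair the samples. With the replicate block 178 clusters passed, Atp4a had limma adjusted p = 0.228, and 0 members passed. Averaging several clusters of a gene was not run because each member had 1. Signals near the negative control medians limit what can be seen for Atp4b and Atp12a.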
